A study of Mus musculus with 4 samples.

Results

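Chemokine receptors are membrane proteins that steer migrating cells along gradients of small secreted proteins, the chemokines. The genes described here are Ccr1, Ccr2, Ccr6, Ccr7, Cxcr4, Cx3cr1 and Ccrl2, 7 of the 24441 gene symbols in the deposited tables, taken by name. They were chosen by name and by their FPKM levels in these same libraries, Ccr7 for its difference between the groups, so their differences are given as descriptions and nothing is read from them. Langerhans cells, which take up and present antigen in the epidermis, were sorted from epidermal suspensions of mice 4 weeks old, and their RNA was sequenced. The first group, Tfam cKO, came from mice with a CD11c-Cre transgene and floxed Tfam alleles. Tfam encodes a factor that packages and transcribes mitochondrial DNA, and the Cre transgene is driven by a promoter active in dendritic cells in general, not in Langerhans cells alone. The second group, WT, came from wild-type mice of the same age, and no allele shared by both groups is given in the labels. Each group had 2 libraries, numbered 1 and 2. The sources used here do not say how many mice stand behind a library, so that the spread between libraries may be partly technical.

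Langerhans cells settle in the epidermis early in life and stay there until they are called to leave. On leaving, a cell raises CCR7, whose ligands CCL19 and CCL21 draw it through lymphatic vessels to the lymph node, where it meets T cells. CXCR4, the receptor for CXCL12, takes part in the passage from epidermis to dermis, CCR2 and CCR6 are used by precursors on their way into inflamed or renewing epidermis, and CCRL2 is an atypical receptor that binds chemerin without sending the usual G protein signal.

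The targeted gene was looked at first. Tfam was at 1.65 and 1.53 FPKM (fragments scaled to transcript length and to the mapped fragments of the library) in Tfam cKO and at 3.17 and 1.61 FPKM in WT. The library labelled WT 2 was thus about as low as both Tfam cKO libraries. A value for the whole gene can include fragments from outside the deleted exons, so it does not settle the genotype, and every direction below rests on the labels. Y-linked Ddx3y was at 0 and 9.34 FPKM in Tfam cKO and at 0 and 28.2 FPKM in WT, so the libraries numbered 1 and 2 differed in this respect in both groups. All 10 markers of Langerhans cells were measured, and Cd207, the gene for langerin, was at 1528 and 1374 FPKM in Tfam cKO and at 2098 and 1495 FPKM in WT. Of the 10, 3 were lower in each Tfam cKO library than in each WT library, Itgax, Ptprc and Ly75, and 0 were higher. Over all genes tested below, these orders held for 9.75% and 25.4%. Transcripts of the neighbouring epidermal cells were present as well. The 12 keratinocyte markers summed to 14288 and 12951 FPKM in Tfam cKO and to 14240 and 9848 FPKM in WT. The 8 markers of dendritic epidermal T cells summed to 228 and 346 FPKM in Tfam cKO and to 317 and 393 FPKM in WT. Of 6 mast cell markers 5 were listed at 0 in all 4 libraries, among them Cpa3. Of 6 neutrophil markers 2, Ly6g and Mmp8, were at 0 in all 4, while S100a8 was at 0 and 4.69 FPKM in Tfam cKO and at 1.64 and 3.22 FPKM in WT.

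The 7 receptors covered a wide range of levels, and their order was the same in both groups down to the lowest pair. Ccrl2 stood highest, followed by Cxcr4, Ccr7, Cx3cr1, Ccr1, Ccr2 and Ccr6. For each neighbouring pair from Ccrl2 to Ccr2, the lowest library of the higher gene lay above the highest library of the lower gene. Ccr2 and Ccr6 overlapped and could not be ordered. FPKM is scaled to transcript length, so these levels can be set against each other.

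**Figure D1:**
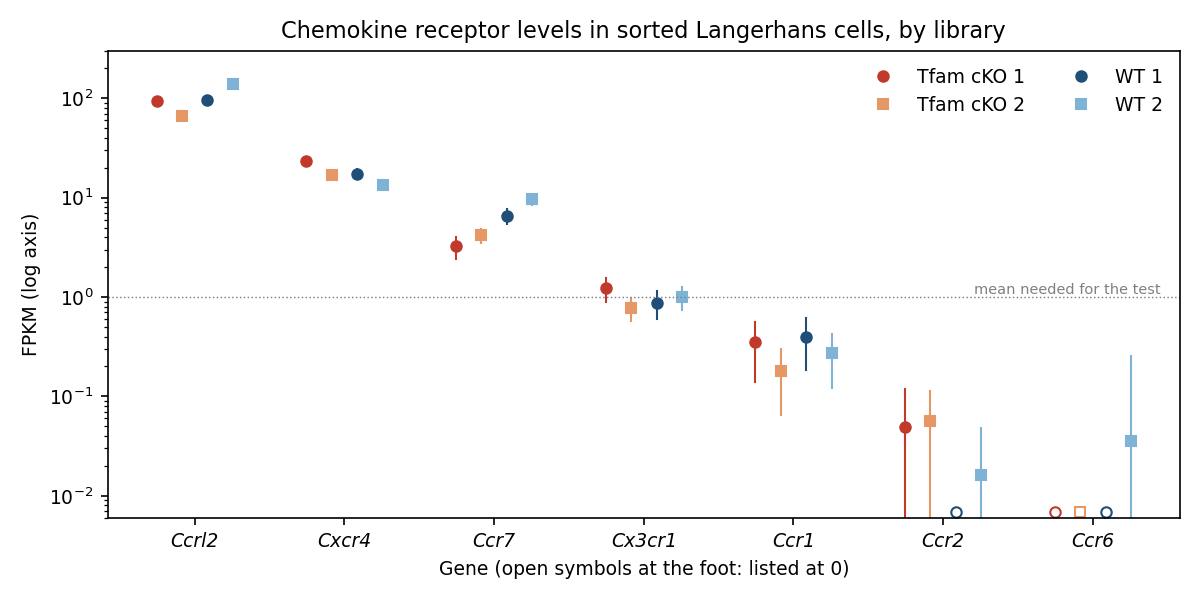
FPKM of the 7 receptors in each library on a log axis, with Cufflinks' 95% intervals as vertical lines (where a line reaches the foot of the plot the lower bound is 0) and open symbols at the foot for values listed at 0. Only Ccrl2, Cxcr4 and Ccr7 lie above the dotted line of 1 FPKM in all 4 libraries.

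Only 3 of the 7, Ccrl2, Cxcr4 and Ccr7, reached the mean of 1 FPKM over the 4 libraries that was required for the test. In the limma fit of log2(FPKM + 1) over all 10910 genes at or above that mean, 0 of these 3 passed an adjusted p of 0.05, against 0.0183% of all tested genes. At an unadjusted p below 0.05 there was 1, Ccr7, which was lower in Tfam cKO, against 6.21% of all tested genes, 5.01% higher and 1.19% lower. For Ccr7 and Ccrl2 the higher Tfam cKO library was below the lower WT library, an order held by 9.75% of all tested genes. The choice of these genes used this contrast, so the counts carry no weight of their own.

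Ccr7, the receptor for the lymph node chemokines CCL19 and CCL21, was at 3.23 and 4.16 FPKM in Tfam cKO, against 6.57 and 9.67 FPKM in WT. Each Tfam cKO library was below each WT library, and the groups did not overlap. Cufflinks' 95% intervals cover error within a library and not the spread between libraries. For Ccr7 they were 2.41 to 4.04 and 3.46 to 4.86 FPKM in Tfam cKO and 5.46 to 7.67 and 8.49 to 10.8 FPKM in WT. No interval of one group reached into an interval of the other. The width of these intervals corresponds to 63 and 142 effective fragments in Tfam cKO and to 141 and 268 in WT, so that the count behind the gene is moderate.

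The mean of Ccr7 was 3.70 ± 0.660 FPKM in Tfam cKO and 8.12 ± 2.19 FPKM in WT (SD, n = 2 each), a ratio of 0.455. On the log2(FPKM + 1) scale, which understates changes of low genes, the fold change was −0.94 (SE 0.21). The difference was −0.84 between the libraries numbered 1 and −1.05 between those numbered 2. Since the groups did not overlap, the sign had to be the same in both. Without WT 2, the library whose Tfam level was low, the fold change was −0.70, and without WT 1 it was −1.19. Without Tfam cKO 1 it was −0.80, and without Tfam cKO 2 it was −1.09. Each of these fits left a group with a lone library, assumed to vary like the other group. The deposited FPKM summed to 395707 and 375823 in Tfam cKO and to 369761 and 338783 in WT. Rescaling all libraries to equal totals, which moved the median of all tested genes by −0.11, gave −1.16 for Ccr7. The equal totals were set above the deposited ones, so the added 1 also weighed less. Adding 0.1 in place of 1, without rescaling, gave −1.10, so the value of −1.16 mixes the totals and the weight of the added 1. In RNA from a whole sorted population, fewer cells with a transcript and less of it per cell cannot be told apart. The summed T cell markers given above were also lowest in Tfam cKO 1 and highest in WT 2, and the groups of the sum overlapped. Among the 8 markers, Cd3g had the order of Ccr7, at 36.9 and 70.1 FPKM in Tfam cKO against 79.2 and 85.1 FPKM in WT. Thy1 had the opposite order, at 67.0 and 66.8 against 65.6 and 66.3 FPKM, and the others overlapped. The part of T cells in the Ccr7 values was not tested. Ccr7 lies on chromosome 11 at 99005513 to 99016391 in the coordinates of the tables, whose build does not match the mm10 named with them, and no other gene of the tables overlaps it.

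Ccrl2, the atypical chemerin receptor that lacks conventional signalling and is induced in activated myeloid cells, was the most abundant of the 7. It was at 94.7 and 66.6 FPKM in Tfam cKO, against 95.2 and 139 FPKM in WT. The groups did not overlap, but Tfam cKO 1 and WT 1 were nearly equal, with intervals of 89.7 to 99.7 FPKM in Tfam cKO 1 and 90.4 to 100.1 FPKM in WT 1. The difference between the groups lay between the libraries numbered 2, at −1.05 on the log2(FPKM + 1) scale, while those numbered 1 differed by −0.0081. Ccrl2 averaged 80.6 ± 19.9 FPKM in Tfam cKO and 117 ± 30.9 FPKM in WT (SD, n = 2 each). The log2 fold change was −0.53 (SE 0.25). That value was −0.26 without WT 2 and −0.28 without Tfam cKO 2. It was −0.80 without WT 1. The lowest and the highest library of this gene were thus of the same replicate number, Tfam cKO 2 and WT 2. Between 1446 and 2490 effective fragments stood behind each value, so counting error was small beside the spread between libraries. Ccrl2 lies on chromosome 9 at 110957338 to 110960022.

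Cxcr4, the receptor for CXCL12, was at 23.2 and 16.8 FPKM in Tfam cKO, against 17.4 and 13.3 FPKM in WT. The groups overlapped, since Tfam cKO 2 lay below WT 1. Its mean was 20.0 ± 4.51 FPKM in Tfam cKO and 15.3 ± 2.94 FPKM in WT (SD, n = 2 each). The log2 fold change was 0.36 (SE 0.21). Between libraries of the same number Tfam cKO was higher in both, by 0.39 for number 1 and 0.32 for number 2. The labels give these numbers no meaning. The fold change was 0.17 without WT 2, 0.13 without Tfam cKO 1 and 0.58 without Tfam cKO 2. Of the 3 tested receptors, Cxcr4 was the one with a higher mean in Tfam cKO. Cxcr4 lies on chromosome 1 at 130484776 to 130488876.

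**Figure D2:**
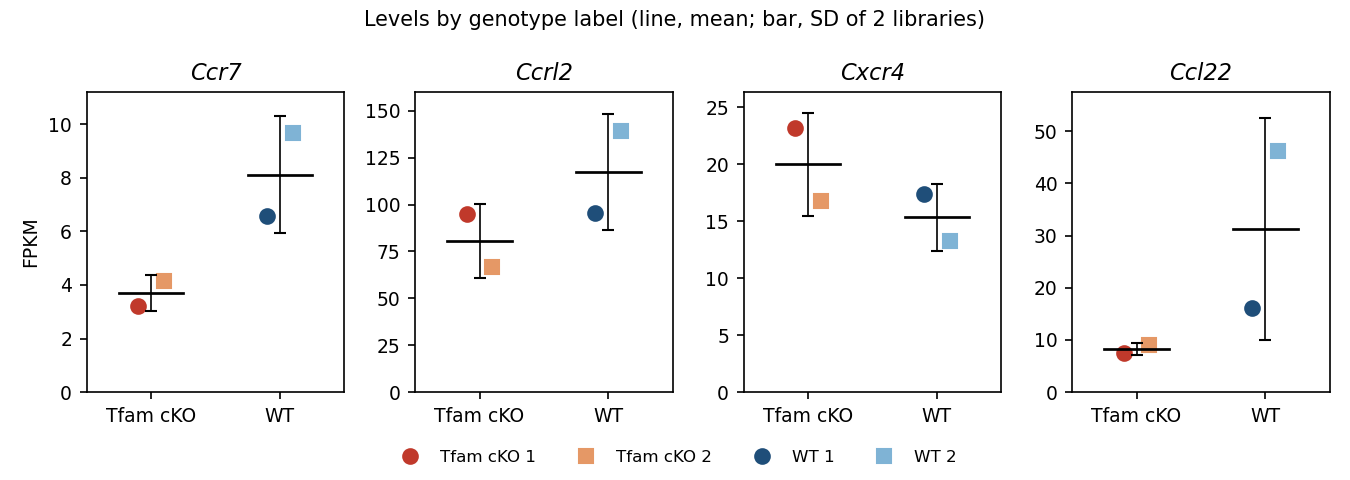
FPKM of Ccr7, Ccrl2, Cxcr4 and the chemokine gene Ccl22 in Tfam cKO (left) and WT (right) on linear axes from 0, with points for libraries, a line for the mean and a bar for the SD of 2 libraries. The Tfam cKO points of Ccr7, at 3.23 and 4.16 FPKM, lie below the WT points at 6.57 and 9.67 FPKM. For Ccrl2, Tfam cKO 1 at 94.7 FPKM nearly touches the lower WT point at 95.2 FPKM, and Tfam cKO 2 lies below both at 66.6 FPKM. The Tfam cKO points of Cxcr4 overlap with WT.

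The 4 other receptors were below the mean required for the test, and no fold change is given for them. Cx3cr1, the receptor for the membrane-bound chemokine CX3CL1 that marks monocytes and several tissue macrophages, was just under it with a mean of 0.969 FPKM. It was at 1.23 and 0.775 FPKM in Tfam cKO and at 0.877 and 0.997 FPKM in WT. The Tfam cKO libraries were the highest and the lowest of the 4, with 52 and 56 effective fragments, and the WT libraries, with 41 and 63, lay between them. Ccr1, a receptor for inflammatory chemokines such as CCL3 and CCL5, was at 0.353 and 0.182 FPKM in Tfam cKO and at 0.397 and 0.270 FPKM in WT. The groups overlapped, on 9.59 to 14 effective fragments per library.

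Ccr2, the receptor for CCL2 that brings monocytes into inflamed skin, was at 0.0496 and 0.0561 FPKM in Tfam cKO and was listed at 0 and 0.0161 FPKM in WT. The Tfam cKO values were higher, but they rest on about 2 and 4 fragments in Tfam cKO and 0 and 1 in WT, which cannot carry a comparison. Ccr6, the receptor for CCL20, was listed at 0 in both Tfam cKO libraries and in WT 1. In WT 2 it was at 0.0356 FPKM with an interval of 0 to 0.257 FPKM. At this depth no level of Ccr6 was detectable. The 12 markers of monocytes and macrophages, cells that use CCR1, CCR2 and CX3CR1, summed to 339 and 253 FPKM in Tfam cKO and to 209 and 196 FPKM in WT. Of these 12 markers, 7 reached a mean of 1 FPKM. In order, 6 of the 12 were higher in each Tfam cKO library than in each WT library and 0 lower. The 6 include Mrc1, which did not exceed 0.130 FPKM, but the others of the 6 each reached a mean of 1 FPKM. Among these, Cd68 was at 69.3 and 69.9 FPKM in Tfam cKO and at 57.2 and 55.2 FPKM in WT. Lyz2 was at 35.2 and 27.7 FPKM in Tfam cKO and at 23.6 and 17.5 FPKM in WT. The rest had larger ratios of Tfam cKO to WT than Cd68 and Lyz2. Fcgr1 was at 0 in all 4 libraries. The 9 markers of dermal dendritic cells summed to 99.8 and 91.2 FPKM in Tfam cKO and to 78.7 and 93.3 FPKM in WT. Of them 3, Irf8, Mgl2 and Flt3, were higher in each Tfam cKO library than in each WT library and 0 lower. Over all tested genes these orders held for 25.4% and 9.75%. Adgre1 alone was at 97.8 and 76.8 FPKM in Tfam cKO and at 91.5 and 80.7 FPKM in WT. Ly6c2, Mrc1, Mertk and Ms4a7 stayed below 1 FPKM in every library. Sirpa alone was at 49.3 and 44.8 FPKM in Tfam cKO and at 47.1 and 54.0 FPKM in WT. Clec9a and Xcr1 stayed below 1 FPKM. The sums are thus no measure of how much of either cell type was present. The part of either cell type in the levels of these receptors was not tested.

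The low level of Ccr1 and Ccr2 was shared by the receptor genes between them. In the coordinates of the tables, Ccr1, Ccr1l1, Ccr3 and Ccr2 lie in this order within 147 kb of chromosome 9. None of these 4 genes exceeded 0.397 FPKM in any library. Ccrl2, 12.9 Mb away on the same chromosome, was the highest receptor of all. Of the 26 chemokine receptor genes examined, 15 lie on chromosome 9. Position on this chromosome did not go with 1 level, since Ackr4, Cxcr6 and Ccrl2 lie there as well.

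Among the other 19 receptors of the family, 4 reached the required mean. None of these 4 passed the limma test over all genes in either direction, at an adjusted p of 0.05 or at an unadjusted p below 0.05, and their groups overlapped in every case. Their median log2 fold change was −0.025, against 0.07 over all tested genes. Ackr3, an atypical receptor that takes up CXCL12, was at 27.2 and 21.2 FPKM in Tfam cKO and at 24.1 and 15.1 FPKM in WT (limma adjusted p = 0.91). Ackr4, an atypical receptor that takes up the CCR7 ligands CCL19 and CCL21, was at 15.2 and 15.5 FPKM in Tfam cKO and at 18.7 and 13.6 FPKM in WT (limma adjusted p = 0.988). Both stood above Ccr7 in each library. Both were lowest in WT 2, the library with the lowest sum of keratinocyte markers, 9848 FPKM. The part of keratinocytes in the levels of Ackr3 and Ackr4 was not tested.

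Ccr10 and Cxcr6 are receptors of skin T cells. Cxcr6 was at 2.68 and 5.49 FPKM in Tfam cKO and at 3.71 and 4.01 FPKM in WT (limma adjusted p = 0.996). Its log2 fold change of 0.0079 turned to −0.038 after quantile normalization and to −0.11 after rescaling to equal totals. Ccr10 was at 0.789 and 1.47 FPKM in Tfam cKO and at 1.19 and 2.22 FPKM in WT (limma adjusted p = 0.914). Both genes were lowest in Tfam cKO 1, the library with the lowest sum of T cell markers, 228 FPKM. Cd3e, a defining gene of T cells, was at 18.6 and 28.4 FPKM in Tfam cKO and at 26.4 and 36.8 FPKM in WT, and its part in the levels of these receptors was not tested. The remaining 15 receptors were below the required mean, among them Ccr4 at 0.686 and 0.888 FPKM in Tfam cKO and 0.635 and 0.614 FPKM in WT, and Xcr1, a marker of dermal dendritic cells, at 0.0984 and 0.156 FPKM in Tfam cKO and 0.104 and 0.102 FPKM in WT.

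The summed level of the 26 receptors was 171 and 135 FPKM in Tfam cKO and 172 and 202 FPKM in WT. Atypical receptors, namely Ccrl2 and Ackr1 to Ackr4, took 80.7% and 77.0% of it in Tfam cKO and 81.2% and 83.7% in WT. Ccrl2 alone took 55.3% and 49.3% in Tfam cKO and 55.5% and 68.9% in WT. The 19 conventional receptors summed to 32.7 and 30.3 FPKM in Tfam cKO and to 31.4 and 32.0 FPKM in WT, and thus varied little between libraries. Within this sum, Cxcr4 took 70.8% and 55.4% in Tfam cKO and 55.4% and 41.4% in WT.

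**Figure D3:**
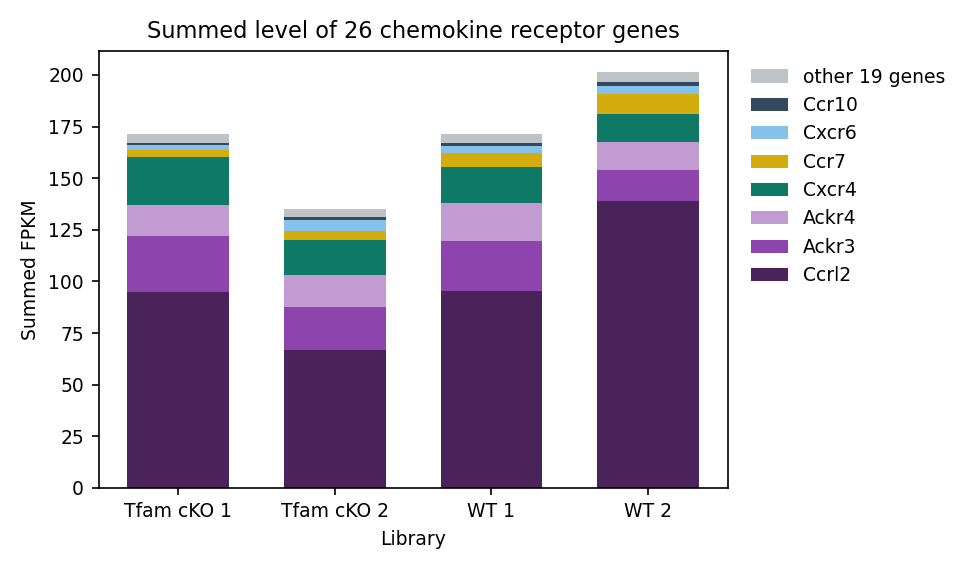
Summed FPKM of 26 chemokine receptor genes in each library as stacked bars from 0, with Tfam cKO libraries left of WT libraries. Ccrl2 makes up between 49.3% of the bar in Tfam cKO 2 and 68.9% in WT 2, and Ccr7 is a thin band in all 4.

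The ligands of the 7 receptors were examined next, from a list of 16 genes, of which 5 reached the required mean. In the limma fit 0 of the 5 passed an adjusted p of 0.05, with 1 higher and 0 lower at an unadjusted p below 0.05 (all tested genes, 5.01% and 1.19%). The median log2 fold change was 0.21, against 0.07 over all tested genes. The one at an unadjusted p below 0.05 was Cxcl12, the ligand of CXCR4 and ACKR3, at 2.79 and 2.84 FPKM in Tfam cKO against 1.13 and 1.54 FPKM in WT. Each Tfam cKO library was above each WT library, an order held by 25.4% of all tested genes. Its log2 fold change was 0.71 (SE 0.20, limma adjusted p = 0.549), and it lay between 0.30 and 1.04 over all alternatives, with adjusted p from 0.0788 to 0.856.

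Ccl3, a ligand of CCR1, was at 19.8 and 14.2 FPKM in Tfam cKO and at 11.0 and 18.7 FPKM in WT. Ccl2, the ligand of CCR2, was at 11.96 and 8.75 FPKM in Tfam cKO and at 14.5 and 11.6 FPKM in WT. Ccl20, the ligand of CCR6, was at 7.95 and 5.84 FPKM in Tfam cKO and at 6.34 and 3.67 FPKM in WT. The groups overlapped for these 3 ligands, and the part of keratinocytes in their levels was not tested. Cx3cl1, the ligand of CX3CR1, was at 2.60 and 2.77 FPKM in Tfam cKO, below 3.04 and 3.56 FPKM in WT (limma adjusted p = 0.914). The CCR7 ligand genes Ccl19 and Ccl21a and the chemerin gene Rarres2 were listed at 0 in all 4 libraries. Of the other CCL21 genes, Ccl21b was at 0 and 0.250 FPKM in Tfam cKO and at 0.126 and 0.273 FPKM in WT. Ccl21c did not exceed 0.000334 FPKM in any library.

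Genes that carry the signal from chemokine receptors showed no call in either direction. Of 30 genes on this list 28 were tested, and 0 passed the limma test at an adjusted or at an unadjusted p below 0.05. Their median log2 fold change was 0.00034, against 0.07 over all tested genes, and was −0.091 after quantile normalization and −0.12 after rescaling. The groups did not overlap for 3 higher and 1 lower gene, against 25.4% and 9.75% of all tested genes. Rgs1, which shortens G protein signals of chemokine receptors, was at 848 and 1335 FPKM in Tfam cKO and at 1031 and 1453 FPKM in WT. Rgs2, another regulator of G protein signalling, was at 450 and 527 FPKM in Tfam cKO and at 509 and 537 FPKM in WT. Both genes overlapped between the groups.

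Gnai2, the G protein alpha subunit coupled to these receptors in leukocytes, was at 427 and 343 FPKM in Tfam cKO and at 405 and 396 FPKM in WT. Cdc42, a small GTPase that sets the direction of migration, was at 207 and 190 FPKM in Tfam cKO and at 198 and 163 FPKM in WT. Rgs10 had the largest log2 fold change on the list, 0.21, with 83.3 and 92.1 FPKM in Tfam cKO against 73.6 and 77.6 FPKM in WT (limma adjusted p = 0.918).

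Ccr7 is one of a group of genes that dendritic cells raise when they mature and leave a tissue. Of 23 other genes of that group, 15 were tested and 0 passed an adjusted p of 0.05 in limma, with 1 higher and 1 lower at an unadjusted p below 0.05 (all tested genes, 5.01% and 1.19%). The groups did not overlap for 5 of the 15, with Cd40, Birc3 and Il15ra higher in Tfam cKO and Ccl22 and Mmp9 lower. Over all tested genes these orders held for 25.4% and 9.75%. The median log2 fold change of the 15 was −0.078, against 0.07 over all tested genes.

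Ccl22, a chemokine gene of mature dendritic cells, had the largest difference of the list. It was at 7.45 and 9.08 FPKM in Tfam cKO, against 16.2 and 46.3 FPKM in WT, so the groups did not overlap and the WT libraries were far apart. The log2 fold change was −1.63 (SE 0.40, limma adjusted p = 0.456), with −1.02 between the libraries numbered 1 and −2.23 between those numbered 2. Without WT 2 it was −0.90. Without WT 1, Tfam cKO 1 or Tfam cKO 2 it was −2.36, −1.5 and −1.75, each time with 1 group reduced to a lone library assumed to vary like the other group. Over all alternatives its adjusted p ranged from 2.0e-07 to 0.856.

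Apart from Mmp9, the other tested genes of this group did not share the order of Ccr7 and Ccl22. Cd83, a surface protein of mature dendritic cells, was at 448 and 284 FPKM in Tfam cKO and at 389 and 319 FPKM in WT. Its log2 fold change of 0.017 turned to −0.14 after quantile normalization and −0.11 after rescaling. The costimulatory ligand gene Cd86 was at 109 and 81.7 FPKM in Tfam cKO and at 117 and 89.3 FPKM in WT. Marcksl1, an actin-binding protein gene, was at 154 and 99.96 FPKM in Tfam cKO and at 135 and 129 FPKM in WT. These 3 genes overlapped between the groups.

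Fscn1, the actin-bundling protein of migrating dendritic cells, was at 6.96 and 9.36 FPKM in Tfam cKO and at 3.91 and 7.53 FPKM in WT (log2 fold change 0.49, limma adjusted p = 0.865). Its mean was higher in Tfam cKO, opposite to Ccr7, with overlapping libraries. Mmp9, a gelatinase with which Langerhans cells cross the basement membrane, was at 115 and 105 FPKM in Tfam cKO and at 116 and 153 FPKM in WT (log2 fold change −0.27, limma adjusted p = 0.907). As with Ccrl2, the difference lay between the libraries numbered 2.

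**Figure D4:**
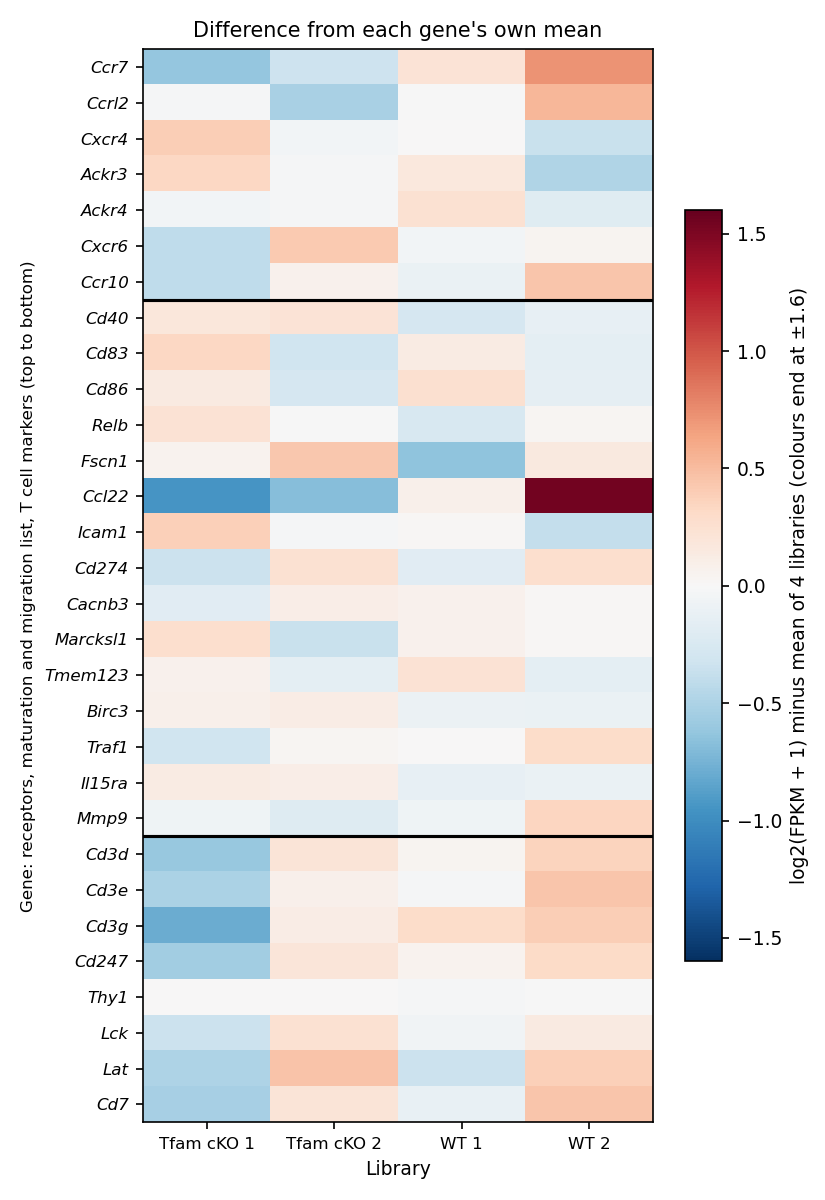
Difference of log2(FPKM + 1) from each gene's mean over the 4 libraries, for 7 tested receptors, 15 genes of dendritic cell maturation and migration and 8 T cell markers (columns, Tfam cKO left of WT). Ccr7 and Ccl22 are low in both Tfam cKO libraries and high in WT 2, while Cd83, Cd86 and Fscn1 do not share that order and most T cell markers are lowest in Tfam cKO 1.

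The genes whose pattern over the 4 libraries was nearest to that of Ccr7 were sought among 6932 tested genes with a mean of at least 5 FPKM, by the root mean square distance between log2(FPKM + 1) values centred on each gene's mean. The nearest 5 were Adgrl1, Cacna1e, Map4k2, Slc12a5 and Ninl, at distances of 0.13 to 0.17. Adgrl1, an adhesion receptor gene, was at 6.40 and 7.51 FPKM in Tfam cKO and at 9.39 and 15.0 FPKM in WT. Cacna1e, a calcium channel subunit gene, was at 16.3 and 18.8 FPKM in Tfam cKO and at 23.2 and 33.2 FPKM in WT. With only 4 libraries such a ranking is a description. The 7 receptors themselves were left out of the search. For Cxcr4 the nearest were Ccdc117 and Cbx1, at 0.019 and 0.020. For Ccrl2 they were Kctd17 and Ubl5, at 0.087 and 0.11. Both had nearly equal levels in Tfam cKO 1 and WT 1, which their choice by the pattern of Ccrl2 entails.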

How the data were processed

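Per the labels' protocols, Trizol was used to extract RNA of sorted Langerhans cells, and the NEBNext Ultra kit to prepare libraries. The deposited values are FPKM per gene with Cufflinks' 95% interval, 1 table per library, per the file headers. The submitters' processing notes name CASAVA, Cufflinks and mm10, with no version. The sources used here do not give the aligner, the annotation or strandedness. Locus starts were raised by 1 to count from 1, after which the span equalled that in RefSeq's GRCm38.p6 for 5 of the 7 genes, at other positions, so the build of the tables is unresolved. Read depth is not in the tables. An effective fragment number was taken as the square of FPKM over its standard error. The standard error came from the upper side of the interval (2 standard errors, the lower side being cut at 0). The number covers error within a library and not the spread between libraries.

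Loci of 1 symbol were summed. Genes with a mean of at least 1 FPKM, 10910 in all, were compared as log2(FPKM + 1), Tfam cKO over WT, with limma 3.58.1 in R 4.3.3 (genotype term, mean trend, Benjamini-Hochberg over all tested genes, threshold 0.05). An exact permutation test of 2 against 2 libraries cannot go below 0.333 and was not used. The genes and lists were chosen with earlier results of these data known. Named are the 7 receptors, every other tested receptor and, of each further list with no call, the 4 of highest level and the 2 of largest change. The 5 genes nearest in pattern to Ccr7 and the 2 nearest to each other tested receptor are named as well. Cd40, Birc3, Il15ra, Ccl19, Ccl21a, Ccl21b, Ccl21c, Rarres2, Ccr4, Xcr1 and the markers were named after their values were seen. A gene of the lists is not reported here. Alternatives were quantile normalization, equal totals, no filter or 5 FPKM, pseudocounts of 0.1 and 5, no trend, robust moderation, a replicate block and leaving out each library. The equal totals were above the deposited totals, so the added 1 weighed less in that alternative. Figures were drawn with matplotlib 3.10.9 in Python 3.11.15.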

Additional observations from a re-analysis of the deposited data

How the results depend on the processing

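The count of genes past the threshold, 2 in the fit as reported, was 0 without a filter, 1 with a filter at 5 FPKM, 1 with a pseudocount of 5, 5 with robust moderation, 184 with the replicate number as a block and 16 to 82 with a library left out. Among the 7 receptors it was 0 as reported, 1 (Ccr7) with the replicate block and 0 to 1 with a library left out. On the maturation and migration list it was 0 as reported, 1 (Ccl22) with the replicate block and 0 to 1 with a library left out. With the block, the adjusted p of Ccr7 was 0.00127 in limma, against 0.417 as reported. Libraries of the same number shared the presence or absence of Y-linked transcripts. Where present, these were lower in Tfam cKO 2 than in WT 2, with Ddx3y at 9.34 and 28.2 FPKM. Deviations of libraries of the same number correlated with r = 0.255 across genes. The labels give the numbers no meaning and there are only 2 pairs, so the numbers were not treated as a pairing. The cause of these changes was not tested. The other lists had no call under any alternative. The log2 fold changes of Ccr7, Ccrl2, Cxcr4 and Ccl22 kept their sign under every alternative. For Ccr7, Ccrl2 and Ccl22 the groups did not overlap, so only quantile normalization or equal totals could have changed it.

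Of 412 refitted values of the 32 named genes, 21 changed sign. After quantile normalization Cxcr6 was −0.038, Cdc42 −0.018 and Cd83 −0.14; after rescaling to equal totals Cxcr6 was −0.11 and Cd83 −0.11; with a pseudocount of 0.1 Cxcr6 was −0.0064. With a library left out, the range was −0.40 to 0.42 for Cxcr6, −0.0048 to 0.64 for Ackr3, −0.27 to 0.16 for Ackr4, −0.15 to 0.57 for Ccl3, −0.53 to 0.13 for Rgs1, −0.21 to 0.012 for Rgs2, −0.22 to 0.095 for Gnai2, −0.31 to 0.34 for Cd83, −0.40 to 0.23 for Marcksl1 and −0.32 to 0.090 for Cd86. Depth limits Ccr1, Ccr2, Ccr6 and Cx3cr1, and with 2 libraries a group the spread is known poorly.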

Other observations

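Ratios within a library do not depend on how libraries are scaled to each other. The ratio of Cxcr4 to Ccr7, chosen after the values were seen, was 7.17 and 4.03 in Tfam cKO and 2.65 and 1.37 in WT. The ratio of Ackr4, which takes up the ligands of CCR7, to Ccr7 was 4.70 and 3.72 in Tfam cKO and 2.85 and 1.41 in WT. Neither ratio was tested, since both use the contrast by which Ccr7 was chosen. The part of keratinocytes and other epidermal cells in these ratios was not tested, so they are ratios of the sorted suspension.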
